A study of Homo sapiens with 8 samples.

Results

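The subject here is how each gene moved with MYCL in 2 prostate cancer cell lines whose MYCL level was changed in opposite ways. Its unit is the set of all 8 RNA sequencing libraries of the series, 2 in each of 4 groups. C4-2B is a castration-resistant prostate adenocarcinoma line. It carried either an empty lentiviral vector, called control, or a lentivirus expressing human MYCL from the EF1A promoter together with EGFP. NCI-H660 is a neuroendocrine prostate cancer (NEPC) line. It carried either a non-targeting shRNA (shCtrl) or shRNA against MYCL (shMYCL). The sources name both an adenoviral vector and stable shRNA expression for NCI-H660, so the route and duration of knockdown are not settled here. The lines therefore differ in lineage, vector and kind of perturbation at once, and these cannot be told apart in any difference between them. In C4-2B cells the high-MYCL libraries are the transduced ones, and in NCI-H660 cells they are the shCtrl ones, which hold only the level native to that line. All effects below are log2 fold changes of high minus low MYCL. A positive value thus means higher in MYCL-transduced than in control C4-2B cells, or higher in shCtrl than in shMYCL NCI-H660 cells.

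MYCL belongs to the MYC family of basic helix-loop-helix leucine zipper transcription factors. Its members bind DNA as dimers with MAX, preferably at the E-box CACGTG, while MXD proteins and MXI1 compete for MAX and repress. MYC proteins are best known for raising ribosome production, nucleotide synthesis and cell cycle entry. MYCL is the member that was first found amplified in small cell lung cancer and is expressed in many neuroendocrine tumors.

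For each gene, edgeR's quasi-likelihood test was fitted to the counts of all 8 libraries, and 4 contrasts were read from the fit. These were the effect in each line, the average of both effects, and their difference (C4-2B minus NCI-H660). Genes were called at a Benjamini-Hochberg adjusted p under 0.05 and an absolute log2 value of at least 0.5. Of 78691 genes in the table, 19605 passed the filter on low counts, and 12771 of those had a mean of at least 1 CPM (read counts scaled by library size) in each line and are called measured in both lines. Totals ranged from 15177071 to 32344170 counts per library, and mitochondrial transcripts made up 9.63% to 10.7% of C4-2B and 3.5% to 3.83% of NCI-H660 libraries. Markers of the labelled types were present in the matching line. The sum of 9 luminal markers ran from 3624 to 4951 CPM in C4-2B and from 6.94 to 8.55 CPM in NCI-H660 libraries. For 10 neuroendocrine markers it ran from 1371 to 1848 CPM in NCI-H660 and from 11.5 to 14.4 CPM in C4-2B libraries. KLK3 was at 0 in each NCI-H660 library, while INSM1, NCAM1 and MYCN were at 0 in each C4-2B library. The labels call only the C4-2B control a biological replicate, so p-values measure the spread between these libraries, which may in part be technical. With 2 libraries a group, relabeling samples within each line allows 36 arrangements and an exact two-sided permutation p of 0.0556 at the lowest, so all calls rest on the spread that edgeR shares among genes.

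MYCL itself (ENSG00000116990.12, chromosome 1, 39895428 to 39902256, GRCh38, as all gene positions below) separated the groups in both lines. It stood at 12.1 and 14.2 CPM in control and 3732 and 4242 CPM in MYCL-transduced C4-2B cells. In NCI-H660 cells it was 104 and 81.8 CPM with shCtrl and 10.3 and 12 CPM with shMYCL. The effect was 8.25 (standard error 0.17, adjusted p = 5.76e-12) in C4-2B against 3.06 (standard error 0.15, adjusted p = 1.30e-07) in NCI-H660 cells. Knockdown thus left NCI-H660 cells with about the level of control C4-2B cells, while the transduced C4-2B cells exceeded the native NCI-H660 level in both libraries. The counts do not separate introduced from native MYCL.

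Most genes called in one line were not called in the other. Among genes measured in both lines, 1470 were higher (11.5%) and 1187 lower (9.29%) with MYCL in C4-2B, and 1003 were higher (7.85%) and 865 lower (6.77%) in NCI-H660 cells. Higher in both were 234 genes (1.83%), which followed MYCL, and lower in both were 136 (1.06%), which moved against it. Opposite and significantly different effects were found for 116 genes that were higher with MYCL in C4-2B and lower in NCI-H660 cells (0.908%), and for 75 with the reverse (0.587%). The count of 116 became 66 without shCtrl replicate 1, 66 without shMYCL replicate 1 and 75 without shMYCL replicate 2. In bulk RNA, fewer cells that express a gene and less RNA of it per cell cannot be told apart. A call in C4-2B alone with a called difference was made for 692 higher (5.42%) and 557 lower genes (4.36%). The corresponding counts for NCI-H660 alone were 426 higher (3.34%) and 301 lower (2.36%). Of the genes higher in C4-2B cells, 15.9% were also higher and 7.89% were lower in NCI-H660 cells, where the shares over all genes were 7.85% and 6.77%. Of those lower in C4-2B cells, 11.5% were lower and 6.32% higher. Effects had the same sign in 7224 of 12771 genes (56.6%), and across genes, which are not independent replicates, Pearson's r was 0.095 and Spearman's coefficient 0.153. Each point of that correlation comes from the same 8 libraries.

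**Figure D1:**
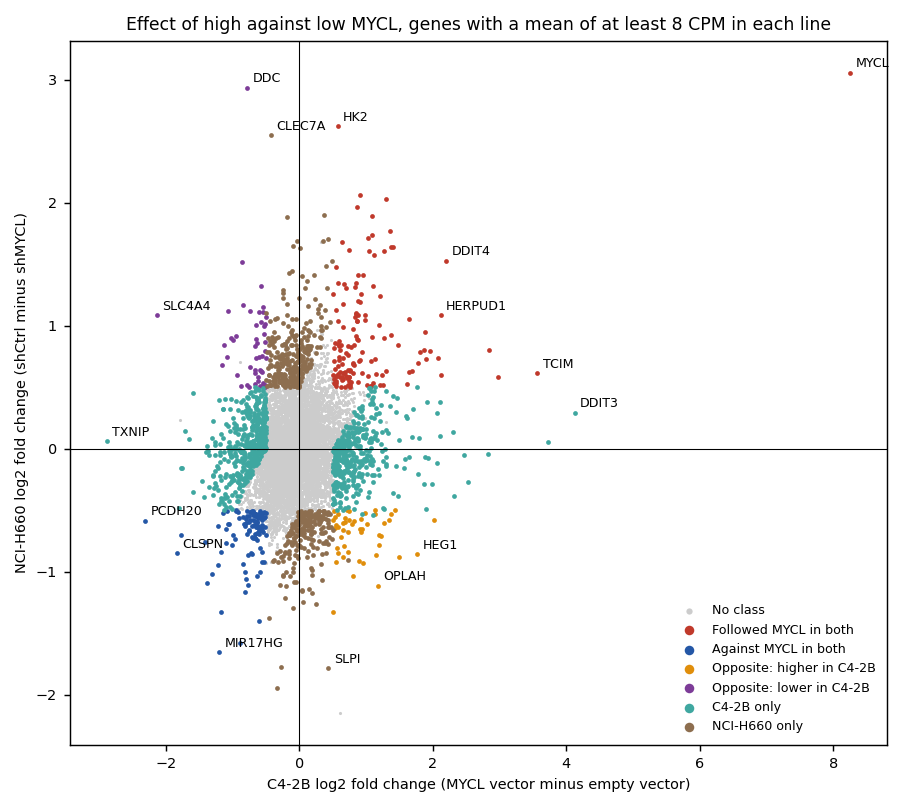
Effect of high against low MYCL in C4-2B (x axis, log2 fold change, MYCL minus control) and NCI-H660 cells (y axis, log2 fold change, shCtrl minus shMYCL) for 9074 genes with a mean of at least 8 CPM in each line, coloured by class. The cloud lies along both axes more than along the diagonal, and MYCL lies alone at the upper right at 8.25 and 3.06.

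The average effect was called for 1460 higher (7.45%) and 803 lower (4.1%) of all 19605 genes, and for 995 higher (7.79%) and 631 lower (4.94%) of those measured in both. The difference was called for 1880 higher in C4-2B (9.59%) and 1633 lower (8.33%) of all genes, and for 1480 (11.6%) and 1504 (11.8%) of those measured in both. The share of higher calls depended on the scale. It was 64.5% of called averages and 53.5% of called differences from counts, and 48.9% and 35.7% from log2(TPM + 1), where the median effect of genes measured in both in C4-2B was −0.14 in place of −0.03. A further 423 genes were called in C4-2B cells but had under 1 CPM in NCI-H660 cells, and 515 the reverse, and these are not sorted into classes.

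Among followers with a mean of at least 8 CPM in each line, those with the largest average effect included several regulators of stress and metabolism. TCIM, a transcriptional and immune response regulator, was at 1.69 and 1.87 CPM in control and 22.2 and 19.7 CPM in MYCL-transduced C4-2B cells. It was at 67.7 and 63.2 CPM with shMYCL and 102 and 98.5 CPM with shCtrl in NCI-H660 cells. Its effects were 3.56 and 0.61, and their difference of 2.95 (standard error 0.17, adjusted p = 6.89e-07) passed the threshold, so it rose in both lines by different amounts. DDIT4, a stress-induced inhibitor of mTORC1 (ENSG00000168209.7, chromosome 10, 72273919 to 72276036), rose from 149.7 and 124 to 619 and 642 CPM in C4-2B and from 46.2 and 61.7 to 112 and 199.9 CPM in NCI-H660 cells. Its average effect was 1.87 (standard error 0.15, adjusted p = 3.24e-06), and the difference of 0.67 (adjusted p = 0.128) was not called. GDF15, a secreted stress cytokine (ENSG00000130513.7, chromosome 19, 18374731 to 18389176), rose from 45.9 and 45 to 312 and 341 CPM and from 53.8 and 47.6 to 70.4 and 106 CPM, with effects of 2.84 and 0.80. HMOX1, the heme-degrading oxygenase (ENSG00000100292.18, chromosome 22, 35380361 to 35394214), had effects of 2.97 and 0.58 (adjusted p = 0.0458), the latter close to both thresholds.

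BHLHE40, HK2 and ACKR3 had the larger value in NCI-H660 cells. BHLHE40, a hypoxia- and stress-induced basic helix-loop-helix repressor (ENSG00000134107.6, chromosome 3, 4979437 to 4985323), was at 35.1 and 39.4 CPM in control and 103 and 80.4 CPM in transduced C4-2B cells, and rose from 25 and 25.6 to 86 and 121 CPM between shMYCL and shCtrl. HK2, the hexokinase that starts glycolysis (ENSG00000159399.11, chromosome 2, 74834127 to 74893359), rose less in C4-2B cells, from 96.8 and 101 to 152 and 143 CPM. In NCI-H660 cells it was at 25.3 and 24 CPM with shMYCL and 134 and 169 CPM with shCtrl. The HK2 effects of 0.57 and 2.62 differed by −2.05 (standard error 0.16, adjusted p = 5.62e-06). ACKR3, an atypical chemokine receptor (ENSG00000144476.7, chromosome 2, 236567787 to 236582354), had effects of 1.36 and 1.77, and the difference of −0.40 (adjusted p = 0.244) was not called. HERPUD1, by contrast a gene with the larger effect in C4-2B and part of endoplasmic reticulum (ER) associated degradation (ENSG00000051108.16, chromosome 16, 56932142 to 56944864), had 2.12 and 1.09. In every one of these 8 genes both high-MYCL libraries lay above both low-MYCL libraries in each line, which was a condition for naming them.

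**Figure D2:**
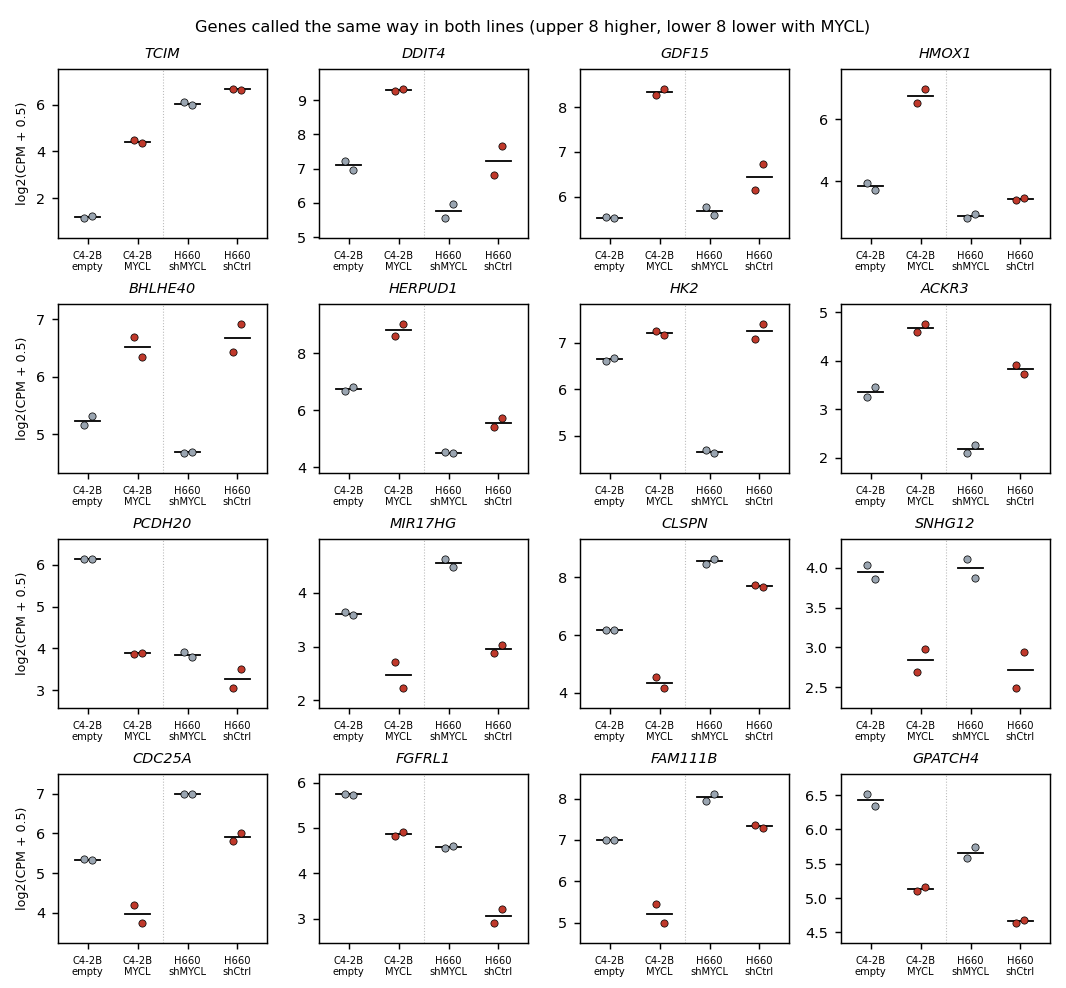
Level of the 8 genes with the largest average effect, at a mean of at least 8 CPM in each line, among followers (upper 2 rows) and among genes that moved against MYCL (lower 2 rows) in each library, as log2(CPM + 0.5). Points are the 2 libraries of each group, bars their mean, red the high-MYCL and grey the low-MYCL group of each line. In each panel red and grey do not overlap within a line, which was a condition for choosing the genes.

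Genes of the hypoxia response held the highest share of followers among the gene lists examined. Under low oxygen, the HIF factors bind the core ACGTG and raise glucose uptake, glycolysis, collagen modification and angiogenic signals. Of 30 listed genes, 22 were higher and 0 lower with MYCL in C4-2B, and 23 higher and 0 lower in NCI-H660 cells. Over all 19605 genes tested, 10.6% were higher and 6.95% lower with MYCL in C4-2B, and 6.96% higher and 5.88% lower in NCI-H660 cells. The median effect was 0.79 and 1.14, against −0.03 and −0.02 over genes measured in both lines. Of the 25 members measured in both, 17 followed MYCL (background 1.83%), 0 moved against it, 3 rose in NCI-H660 only and 1 in C4-2B only. The followers covered glucose entry (SLC2A1, 0.91 and 2.07), the glycolytic switch enzyme PFKFB3 (1.38 and 1.64), the angiogenic ligand VEGFA (1.87 and 0.80), collagen prolyl hydroxylase P4HA1 (1.69 and 0.63), the mitophagy receptor BNIP3 (0.73 and 0.52) and the HIF prolyl hydroxylase EGLN3 (1.04 and 1.61).

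ANKRD37, a HIF target of ankyrin repeat type, had the largest average in the list. It was at 8.55 and 7.06 CPM in control and 29.6 and 22.2 CPM in transduced C4-2B cells, and at 0.624 and 0.424 CPM with shMYCL and 5.88 and 7.15 CPM with shCtrl in NCI-H660 cells. Its average effect was 2.68 (standard error 0.18, adjusted p = 9.71e-07). UFSP2 exons on the other strand cover 40.3% of its exon bases, and the sources used here do not say whether counting used strand. NDUFA4L2, a hypoxia-induced relative of a respiratory chain subunit, had effects of 2.32 and 1.20. Not every hypoxia gene behaved alike. AK4, the mitochondrial adenylate kinase, was at 356 and 348 CPM in control and 304 and 314 CPM in transduced C4-2B cells, an effect of −0.19 (adjusted p = 0.103). In NCI-H660 cells it rose from 28.4 and 26.8 CPM with shMYCL to 98.3 and 105 CPM with shCtrl, and the difference of −2.07 (standard error 0.12, adjusted p = 6.89e-07) was called. CA9, a common hypoxia marker, had 0.618 and 0.755 CPM in control and 1.94 and 2.11 CPM in transduced C4-2B cells. It had 0.811 and 1.09 CPM with shMYCL and 0.448 and 0.511 CPM with shCtrl, so it was too low in NCI-H660 cells to be sorted.

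The 5 letters ACGTG were searched on both strands in promoters from RefSeq (GRCh38.p14, 250 bases before to 50 after each annotated start). They include every CACGTG. They were found in 58.6% of 29 promoters of the 20 hypoxia genes matched, of 25 measured in both, and in 21.4% of all 35116 promoters. The share was not particular to hypoxia genes. It was 63.6% of 11 secretory granule and synaptic, 50% of 42 nucleolar and 15.2% of 46 integrated stress response promoters. Stretches upstream of the start of 3 followers are shown with the letters, or their reverse complement, in capitals, because they carry the core of this response. A match is a description of the sequence only. In ANKRD37 and PFKFB3 a CACGTG holds the core.
ANKRD37 (chr4:185396668-185396732, plus strand): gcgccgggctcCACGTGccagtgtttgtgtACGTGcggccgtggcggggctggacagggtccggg
PFKFB3 (chr10:6202795-6202859, plus strand): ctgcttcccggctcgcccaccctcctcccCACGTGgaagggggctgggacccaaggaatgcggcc
HK2 (chr2:74834049-74834113, plus strand): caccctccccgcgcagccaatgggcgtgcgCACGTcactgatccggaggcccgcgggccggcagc

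Many ER chaperone and unfolded protein response genes also followed MYCL. These genes rise when unfolded protein collects in the ER and restore folding, export and degradation. Of 26 genes, 17 were higher in C4-2B against 10 in NCI-H660 cells, none was lower in either, and the median effects were 0.62 and 0.38. Of all genes tested, 10.6% and 6.96% were higher. Followers numbered 10 and included the sensors ATF6 and ERN1, the chaperones HSPA5, HSP90B1 and HYOU1, and the degradation factors SEL1L and EDEM1. HSPA5, the main ER chaperone BiP, was at 1439.7 and 1440.4 CPM in control and 3816 and 6071 CPM in transduced C4-2B cells. With shMYCL it was at 556 and 629 CPM and with shCtrl at 897 and 1026 CPM. The average was 1.24 (standard error 0.11, adjusted p = 9.73e-06), and the C4-2B effect was larger by 1.08 (adjusted p = 0.00514). ATF6 rose almost equally, by 0.56 and 0.54, as did HSP90B1, by 0.64 and 0.56. The ATF6 rise depended on the processing. Under alternatives other than leaving out a library, its average ranged from 0.08 to 0.56, and that of HSP90B1 from 0.52 to 0.62. MANF and SYVN1 rose in C4-2B cells only, with effects of 0.98 and 0.83 there and 0.09 and 0.07 in NCI-H660 cells. The calls in NCI-H660 cells depended on single libraries. The 10 genes higher there became 5 without shCtrl replicate 1, 4 without shCtrl replicate 2 and 2 without shMYCL replicate 1, and the followers became 5, 4 and 2 in turn and 6 without shMYCL replicate 2. From log2(TPM + 1), the numbers were 10 (C4-2B) and 5 (NCI-H660), and 3 followed.

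Genes that moved against MYCL in both lines held many DNA replication and S phase genes. CLSPN, the checkpoint mediator claspin (ENSG00000092853.15, chromosome 1, 35720218 to 35769978), was at 71.4 and 72.5 CPM in control and 23 and 17.3 CPM in transduced C4-2B cells. It was at 352 and 398 CPM with shMYCL and 213 and 203 CPM with shCtrl, so it was lower with high MYCL in both, with an average of −1.34 (standard error 0.08, adjusted p = 4.45e-07). CDC25A, the phosphatase that activates CDK2 (ENSG00000164045.13, chromosome 3, 48157146 to 48188417), fell from 40.7 and 39.4 to 17.8 and 12.8 CPM in C4-2B cells and was at 127 and 127 CPM with shMYCL against 55.8 and 63.7 CPM with shCtrl. Its effects of −1.39 and −1.09 had a difference of −0.30 (adjusted p = 0.273), which was not called. FAM111B, a protease of the nucleus (ENSG00000189057.12, chromosome 11, 59107185 to 59127412), had effects of −1.77 and −0.70.

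Other genes against MYCL included noncoding host transcripts, surface proteins and a nucleolar gene. MIR17HG, the host transcript of the miR-17-92 cluster (ENSG00000215417.15, chromosome 13, 91347686 to 91397592), was at 12 and 11.5 CPM in control and 6.04 and 4.17 CPM in transduced C4-2B cells. In NCI-H660 cells it was at 24.3 and 21.7 CPM with shMYCL and 6.88 and 7.66 CPM with shCtrl, and its average was −1.43 (standard error 0.13, adjusted p = 6.65e-06). A gene model on the other strand covers 20.5% of MIR17HG exon bases. SNHG12, a small nucleolar RNA host gene (ENSG00000197989.16, chromosome 1, 28578538 to 28583132), had effects of −1.17 and −1.33. PCDH20, a protocadherin (ENSG00000280165.2, chromosome 13, 61409685 to 61415849), fell mostly in C4-2B cells, with −2.30 against −0.58, and another gene model on the same strand covers 91.3% of its exon bases. FGFRL1, a receptor-like protein of the fibroblast growth factor receptor family (ENSG00000127418.16, chromosome 4, 1009936 to 1026898), fell more in NCI-H660 cells, with −0.89 against −1.58. GPATCH4, a nucleolar G-patch protein (ENSG00000160818.17, chromosome 1, 156594301 to 156601496), had −1.31 and −1.02, and exons of NAXE on the other strand cover 98.1% of its exon bases.

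DNA replication genes were lower with MYCL in both lines where they were called. Of 56 genes, 41 were lower in C4-2B against 13 in NCI-H660 cells and none was higher in either. Of all genes tested 6.95% were lower in C4-2B against 5.88% in NCI-H660 cells. The medians were −0.72 and −0.30, and 49 of 56 had a negative value in both. The average was called lower for 31 genes (background 4.94%) and the difference, lower in C4-2B, for 23 (background 11.8%). The 10 genes against MYCL in both were CDC45, CDC6, CHAF1B, CLSPN, DTL, GINS4, MCM10, ORC1, POLA1 and RRM2, mostly factors of origin licensing and firing. ORC1, a subunit of the origin recognition complex, was at 33.5 and 31.5 CPM in control, 13.7 and 14.3 CPM in transduced C4-2B cells, 95.9 and 84.2 CPM with shMYCL and 44.5 and 48.8 CPM with shCtrl, an average of −1.08 (standard error 0.08, adjusted p = 1.09e-06). The MCM2 to MCM7 helicase genes were called lower in C4-2B cells only. MCM5 went from 91.6 and 86 to 26.8 and 32.2 CPM there, while in NCI-H660 cells it was at 73.9 and 80.7 CPM with shMYCL and 58 and 62.8 CPM with shCtrl. Its effects of −1.59 and −0.35 differed by −1.24 (standard error 0.15, adjusted p = 1.39e-04). PCNA, the sliding clamp, behaved likewise, with −0.88 and −0.21.

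E2F factors, which drive S phase genes, bind variants of TTTCCCGC. The 4 words searched (TTTCCCGC, TTTCGCGC, TTTGCCGC and TTTGGCGC, both strands, in the same promoters) overlap no other motif used here. At least one stood in 39.4% of 66 promoters of 49 matched replication genes, of 56, and in 3.31% of all promoters. The upstream stretches of a gene against MYCL in both lines (POLA1) and of 2 called lower in C4-2B only (POLA2 and MCM6) follow, with the words in capitals. In MCM6, written on its own strand, 2 words overlap.
POLA1 (chrX:24693751-24693818, plus strand): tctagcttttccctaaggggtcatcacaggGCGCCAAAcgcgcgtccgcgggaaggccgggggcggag
POLA2 (chr11:65261879-65261946, plus strand): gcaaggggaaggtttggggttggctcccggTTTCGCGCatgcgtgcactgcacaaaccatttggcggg
MCM6 (chr2:135876492-135876559, minus strand): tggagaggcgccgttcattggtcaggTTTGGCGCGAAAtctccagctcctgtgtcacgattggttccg

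Mitotic genes, often read together with replication genes as proliferation, had medians of opposite sign in the lines. Of 36 genes, 8 were lower and 0 higher with MYCL in C4-2B, while 18 were higher and 0 lower in NCI-H660 cells. The 8 were 22.2%, against 6.95% of all genes tested, and the 18 were 50%, against 6.96%. Without control replicate 1 the number lower in C4-2B was 5. The medians were −0.24 and 0.50, and the difference was called for 26 genes, all lower in C4-2B (background 11.8%). KIF20A, a kinesin of cytokinesis, was at 90.7 and 78.6 CPM in control and 66.3 and 76.9 CPM in transduced C4-2B cells, which did not overlap but lay close. In NCI-H660 cells it rose from 62.8 and 61.8 CPM with shMYCL to 164 and 142 CPM with shCtrl. The KIF20A effects were −0.24 and 1.29, a difference of −1.54 (standard error 0.15, adjusted p = 3.98e-05). CCNB1, the mitotic cyclin B1, was opposite in the lines. It was at 224 and 183 CPM in control and 129 and 151 CPM in transduced C4-2B cells, and at 75.9 and 84 CPM with shMYCL and 180.0 and 167 CPM with shCtrl, with effects of −0.54 (adjusted p = 0.00304) and 1.12 (adjusted p = 5.39e-05).

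PLK1, the polo-like kinase of mitotic entry, rose with MYCL in NCI-H660 only (0.91, against −0.41 in C4-2B cells), as did AURKA (0.84 and −0.12), HMMR (1.18 and −0.18) and the centromeric histone CENPA (1.07 and 0.33). FOXM1, a transcription factor of mitotic genes, did not go with them. It fell in C4-2B cells from 105 and 105 to 51.1 and 45.9 CPM and was at 138 and 122 CPM with shMYCL and 97.6 and 101 CPM with shCtrl, with effects of −1.11 (adjusted p = 4.79e-06) and −0.39 (adjusted p = 0.00922). MKI67, the proliferation marker Ki-67, had −0.57 and 0.16. In NCI-H660 cells replication and mitotic genes thus had medians of opposite sign, −0.30 and 0.50, and in C4-2B cells both medians were negative.

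**Figure D3:**
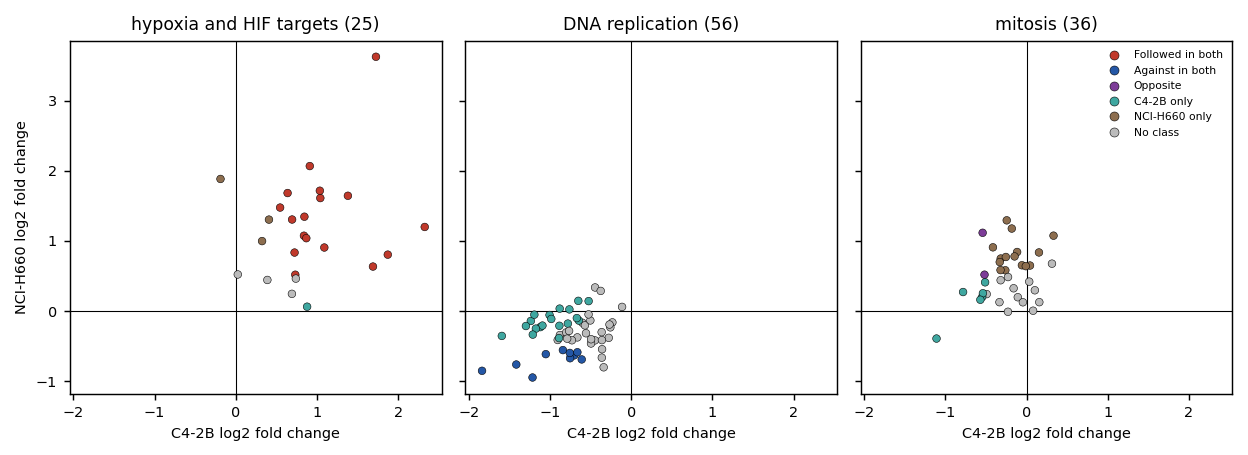
Effect in C4-2B (x axis) and NCI-H660 cells (y axis), both as log2 fold change of high minus low MYCL, for members measured in both lines of the hypoxia (25), DNA replication (56) and mitosis lists (36), coloured by class. Hypoxia genes lie at the upper right except AK4, which is left of 0, replication genes at the left and mostly below 0, and mitotic genes mostly above 0 in NCI-H660 with values around or below 0 in C4-2B cells.

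Many mitotic promoters hold the cell cycle genes homology region (CHR), TTTGAA or TTCGAA, which the DREAM and MuvB complexes bind. One of these words stood in 69.4% of 36 promoters of 30 matched mitotic genes, of 36, and in 16.4% of all promoters. In replication promoters the CHR share was 6.06%, and in mitotic promoters the share with an E2F word was 11.1%. Stretches of 4 genes that rose in NCI-H660 only are given with the word in capitals.
CENPA (chr2:26786008-26786055, plus strand): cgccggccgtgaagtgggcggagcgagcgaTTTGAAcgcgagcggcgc
PLK1 (chr16:23678830-23678888, plus strand): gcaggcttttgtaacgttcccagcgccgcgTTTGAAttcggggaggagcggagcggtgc
CCNB2 (chr15:59105087-59105145, plus strand): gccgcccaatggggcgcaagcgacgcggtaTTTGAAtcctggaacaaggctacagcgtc
HMMR (chr5:163460580-163460631, plus strand): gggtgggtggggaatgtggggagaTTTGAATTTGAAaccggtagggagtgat

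Ribosome production is a textbook target of MYC proteins, and no nucleolar gene examined was called higher with MYCL in either line. Of 42 genes, 19 were lower in C4-2B against 6 in NCI-H660 cells, where 6.95% and 5.88% of all genes were lower. The former count was 12 without MYCL replicate 1 of C4-2B. The medians were −0.46 and −0.30, and 36 had a negative value in both lines. NOP2, an rRNA methyltransferase, was at 124 and 109 CPM in control and 64.5 and 70.5 CPM in transduced C4-2B cells. With shMYCL it was at 38.6 and 37.1 CPM and with shCtrl at 17.2 and 19 CPM. Its effects were −0.79 and −1.06, and another gene model on the same strand shares 54.4% of its exon bases. HEATR1, UTP4 and BYSL also moved against MYCL in both, HEATR1 with exons of LGALS8 on the other strand over 23.1% of its exon bases. NCL, nucleolin, fell from 1679 and 1554 to 807 and 912 CPM in C4-2B cells and was called lower there only, with effects of −0.91 and −0.22. UTP20 had −1.12 and −0.40 (adjusted p = 0.0512). The E-box CACGTG stood in 42.9% of 42 promoters of 34 matched nucleolar genes, of 42, and in 7.26% of all promoters. It is shown in capitals for UTP20, which fell in C4-2B, and UTP4, which fell in both lines.
UTP20 (chr12:101280065-101280104, plus strand): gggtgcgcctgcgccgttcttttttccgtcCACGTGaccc
UTP4 (chr16:69132603-69132648, plus strand): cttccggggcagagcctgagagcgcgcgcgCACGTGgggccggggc

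Within the MYC and MAX network, MYC itself was lower where MYCL was higher. MYC was at 153 and 149 CPM in control and 101 and 119.8 CPM in transduced C4-2B cells, and at 29 and 23.7 CPM with shMYCL and 13.1 and 17.4 CPM with shCtrl. The C4-2B effect of −0.45 (adjusted p = 0.0144) did not reach the minimum of 0.5, the NCI-H660 effect was −0.79 (adjusted p = 0.0027), and the average of −0.62 (standard error 0.10, adjusted p = 4.45e-04) was called. MXI1, the MAX partner that represses MYC targets and is also induced by HIF, followed MYCL. It rose from 69.8 and 65.9 to 106 and 109 CPM in C4-2B cells and was at 30.1 and 31.5 CPM with shMYCL and 79.7 and 76.8 CPM with shCtrl. Its effects were 0.67 and 1.34. MXD3 rose in NCI-H660 only, with 1.40 against 0.03, and shares 19.5% of its exon bases with RAB24. Over the 13 genes, MYCL included, the average was called for 5 higher, MYCL among them, and 1 lower, and medians were 0.16 and 0.14. Of all genes tested, the average was called higher for 7.45% and lower for 4.1%.

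Genes moving in opposite directions came from several functions. HEG1, a mucin-like membrane protein of endothelial junctions (ENSG00000173706.15, chromosome 3, 124965710 to 125055997), was at 5.62 and 8.66 CPM in control and 24.2 and 23.8 CPM in transduced C4-2B cells, and at 76.9 and 64.9 CPM with shMYCL and 43.8 and 34.5 CPM with shCtrl. It was thus higher with MYCL in C4-2B (1.77) and lower in NCI-H660 cells (−0.86). TNFRSF12A, the receptor of TWEAK (ENSG00000006327.15, chromosome 16, 3018445 to 3022383), had 1.50 and −0.88, and MAP3K14, the kinase of noncanonical NF-kB signaling (ENSG00000006062.19, chromosome 17, 45263119 to 45317029), had 1.15 and −0.86. ANK1, an ankyrin of the membrane skeleton, had 2.02 and −0.58. OPLAH, 5-oxoprolinase of the glutathione cycle, went from 8.58 and 8.7 to 18.9 and 20.3 CPM in C4-2B cells and from 7.55 and 8.98 CPM with shCtrl to 18.3 and 17.6 CPM with shMYCL, and its average was 0.03 (adjusted p = 0.894) while its difference was 2.30 (standard error 0.20, adjusted p = 1.86e-05). CLU, the extracellular chaperone clusterin, was of the same kind, at 24.1 and 23.4 CPM in control and 43.7 and 48.4 CPM in transduced C4-2B cells, 39.4 and 45.1 CPM with shMYCL and 22.1 and 22.3 CPM with shCtrl. SEMA6B, a transmembrane semaphorin, had 4.63 and −1.08, from 0.293 and 0.666 CPM in control to 9.11 and 13.8 CPM in transduced C4-2B cells.

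The reverse pattern, lower with MYCL in C4-2B and higher in NCI-H660 cells, was shown by DDC, the aromatic amino acid decarboxylase of dopamine and serotonin synthesis (ENSG00000132437.19, chromosome 7, 50458436 to 50565405). DDC was at 32.8 and 37.7 CPM in control and 21 and 20.0 CPM in transduced C4-2B cells. It was at 7.3 and 7.81 CPM with shMYCL and 63.5 and 52.4 CPM with shCtrl, and its effects of −0.78 and 2.94 differed by −3.72 (standard error 0.19, adjusted p = 3.88e-07). SLC4A4, a sodium bicarbonate cotransporter (ENSG00000080493.20, chromosome 4, 71062667 to 71572087), had −2.14 and 1.09. H1-2, a linker histone gene whose main transcript lacks a poly(A) tail, had −0.85 and 1.17 in these poly(A)-selected libraries.

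**Figure D4:**
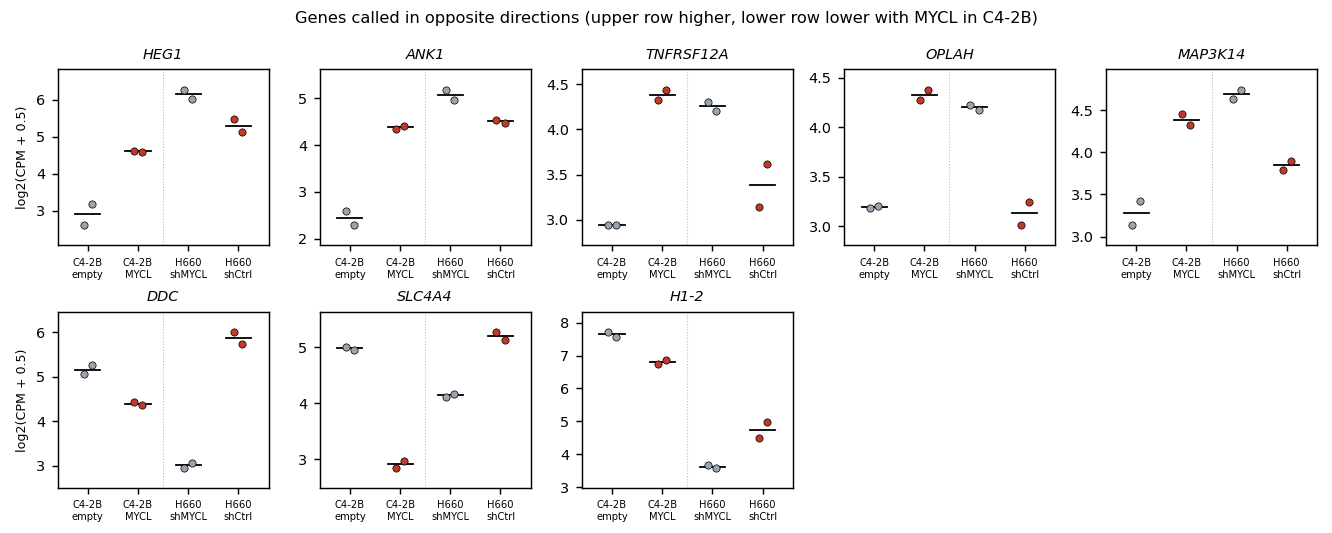
Level of 8 genes with large differences among those called in opposite directions (5 in the upper row, 3 in the lower), in each library, as log2(CPM + 0.5). Points are the 2 libraries of each group, bars their mean, red high MYCL and grey low MYCL. In each panel red lies above grey in one line and below it in the other, which was a condition for choosing the genes.

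Genes called higher in C4-2B alone with a mean of at least 8 CPM in each line included DDIT3, IL32, ATF3 and NIBAN1, and below that level FOS had an effect of 4.11. DDIT3, the transcription factor CHOP, was at 12.6 and 16.7 CPM in control and 233 and 275 CPM in transduced C4-2B cells. In NCI-H660 cells it was at 59.1 and 57.3 CPM with shMYCL and 62.1 and 80.6 CPM with shCtrl. Effects of 4.13 and 0.29 (adjusted p = 0.163) differed by 3.83 (standard error 0.21, adjusted p = 3.89e-07). Exons of MARS1 on the other strand cover 27.2% of DDIT3 exon bases. ATF3, a stress-induced transcription factor, had 2.83 and −0.04, and NIBAN1, a stress-induced protein, had 2.52 and −0.27. IL32, a proinflammatory cytokine, was at 1.69 and 1.51 CPM in control and 21.2 and 21.7 CPM in transduced C4-2B cells, with 26.4 and 24 CPM in the shMYCL and 24.7 and 27.6 CPM in the shCtrl libraries. Lower in C4-2B alone were TXNIP, the glucose-sensing thioredoxin inhibitor, with −2.88 and 0.06, the glutamate receptor subunit GRIN3A with −1.60 and 0.45, the CDC42 effector CDC42EP3 with −1.71 and 0.14, and the aminotransferase AADAT with −1.77 and −0.16. TXNIP was at 51.5 and 62.1 CPM in control and 7.35 and 8.03 CPM in transduced C4-2B cells, and between both NCI-H660 groups its ranges overlapped (834 and 914 CPM with shMYCL, 894 and 929 CPM with shCtrl).

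The integrated stress response, in which ATF4 raises amino acid and redox genes when translation is curbed, had more calls in C4-2B than in NCI-H660 cells. Of 33 genes, 23 were higher in C4-2B against 7 in NCI-H660 cells, with medians of 0.87 and 0.03. Shares over all genes were 10.6% and 6.96%. Without shCtrl replicate 2 the 7 genes became 3 and the 5 followers 2. In C4-2B only were 15, among them the factor ATF4 (0.55 and −0.27), the pseudokinase TRIB3 (1.70 and 0.32) and the glutathione-degrading CHAC1 (2.57 and −0.23). The 5 followers were ALDH1L2, CEBPB, DDIT4, GDF15 and STC2. STC2, a secreted glycoprotein, rose from 70.0 and 69.3 to 142 and 156 CPM in C4-2B cells and from 59.1 and 61.9 CPM with shMYCL to 178 and 225 CPM with shCtrl. The word TGATGNAA, the core of C/EBP-ATF response elements, stood on either strand in 21.7% of 46 promoters of 27 matched genes, of 32, and in 3.62% of all promoters. It is shown in capitals, or as its reverse complement, for 3 genes that rose in C4-2B only.
CHAC1 (chr15:40953232-40953299, plus strand): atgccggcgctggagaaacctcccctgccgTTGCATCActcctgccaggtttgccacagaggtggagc
ATF3 (chr1:212565186-212565253, plus strand): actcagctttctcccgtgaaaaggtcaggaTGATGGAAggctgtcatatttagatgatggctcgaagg
CEBPG (chr19:33374041-33374108, plus strand): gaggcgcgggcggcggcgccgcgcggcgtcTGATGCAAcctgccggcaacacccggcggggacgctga

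Stress and inflammatory lists likewise had more calls in C4-2B. Among immediate early and NF-kB genes, 20 of 30 were higher there and 4 in NCI-H660 cells (66.7% and 13.3%, against 10.6% and 6.96% of all genes), with medians of 1.00 and 0.06, and 12 were C4-2B only. The 4 higher in NCI-H660 cells became 2 without shCtrl replicate 1, shMYCL replicate 1 or shMYCL replicate 2, and the 12 were 7 from log2(TPM + 1). FOS rose from 0.585 and 0.444 to 9.63 and 8.63 CPM in C4-2B cells and had 12.1 and 12.5 CPM with shMYCL and 14.2 and 17.2 CPM with shCtrl. JUN and BIRC3 followed MYCL, with 1.96 and 0.79, and 1.23 and 0.60, while NFKB1 moved against it (−0.63 and −0.59). Of 29 interferon and antigen presentation genes, 14 were higher in C4-2B against 1 in NCI-H660 cells (48.3% and 3.45%), with medians of 0.87 and 0.21. Of these, 7 were C4-2B only, such as the peptide transporter TAP1 (1.30 and −0.07). Of 25 p53 targets, 6 rose in C4-2B only (background 5.42%), among them GADD45A (2.31 and 0.13) and the proapoptotic PMAIP1 (1.87 and −0.29). CDKN1A, the inhibitor p21, was opposite (0.99 and −0.53). The medians of p53 targets were 0.26 and 0.07.

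Cytoplasmic ribosomal protein genes had small values of one sign in C4-2B, positive in 77 of 78. Their medians were 0.39 in C4-2B against −0.08 in NCI-H660 cells, and the difference was called for 32 (41%, against 9.59% of all genes). In C4-2B cells 9 (11.5%) were called higher, a share near the 10.6% of all genes, and none in NCI-H660 cells. The count of 9 became 36 without MYCL replicate 1 and 2 without MYCL replicate 2 of C4-2B. The count of 32 became 20 without MYCL replicate 2, 19 without shCtrl replicate 1 and 17 without shMYCL replicate 1. From log2(TPM + 1) the difference was called for 12 of them and the C4-2B median was 0.25. RPL12, a subunit protein of the large ribosome part, had effects of 0.65 and −0.49. Few nuclear-encoded subunits of the respiratory chain were called. Of 43, 3 were higher in C4-2B against 0 in NCI-H660 cells (6.98% and 0%, under the 10.6% and 6.96% of all genes), and the medians were 0.04 and 0.06, the former −0.07 from log2(TPM + 1).

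CLEC7A, the beta-glucan receptor dectin-1, led the genes higher with MYCL in NCI-H660 alone at the same minimum of 8 CPM. It was at 4.24 and 4.97 CPM with shMYCL and 28.9 and 25.3 CPM with shCtrl, and at 25.4 and 24.7 CPM in control and 18.2 and 19 CPM in transduced C4-2B cells, with effects of 2.55 and −0.43. BMPR1B, a bone morphogenetic protein receptor, had 1.65 and −0.09, and APOLD1, an early-response gene of endothelium that shares 25.6% of its exon bases with DDX47, had 1.69 and −0.04. Lower with MYCL in NCI-H660 alone were SLPI, a secreted protease inhibitor, with −1.79 and 0.43, and KCNMA1, the BK potassium channel, with −1.95 and −0.33. NFKBIB, an inhibitor of NF-kB, had −1.27 and 0.25. CTNND1, p120 catenin of adherens junctions, was at 15.7 and 14.1 CPM with shMYCL and 7.22 and 6.94 CPM with shCtrl against 434 and 444 CPM in control and 572 and 538 CPM in transduced C4-2B cells. Another gene model on the same strand shares 39.1% of its exon bases.

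Most neuroendocrine factors could not be compared across the lines, since 12 of 18 tested were under 1 CPM in C4-2B or NCI-H660 cells. In NCI-H660 cells 8 of the 18 were higher and 2 lower with MYCL, with a median of 0.43. These are 44.4% and 11.1%, against 6.96% and 5.88% of all genes tested. INSM1 (0.64), POU3F2 (0.88) and SOX2 (1.03) were higher with MYCL in NCI-H660 cells and were under 1 CPM in each C4-2B library. Of factors measured in both, SOX4 rose in NCI-H660 only (0.74 and −0.19). LHX2, 1 of the 2 lower factors, fell in NCI-H660 only (−1.23, with 0.98 in C4-2B cells, not called). The Notch ligand DLL3, at 0.23 and 0.49, was not called in either. Several genes that the study follows as neuronal or lineage markers were instead higher in C4-2B alone. ENO2, the neuronal enolase, went from 14.2 and 15.2 to 63.9 and 62.4 CPM in C4-2B cells and had 259.8 and 286 CPM with shMYCL and 254 and 330.4 CPM with shCtrl. L1CAM, a neural cell adhesion molecule, had 2.27 and 0.02, the imprinted gene PEG10 1.88 and −0.10, and the receptor kinase RET 1.73 and 0.13. The size of these differences depended on the processing. Under alternatives other than leaving out a library, the lowest difference was 0.88 for L1CAM, 0.81 for PEG10 and 0.29 for RET, against 1.70 for ENO2. UNC5B, a netrin receptor, followed MYCL (1.78 and 0.52). CHGA, chromogranin A, was at 113 and 123 CPM with shMYCL and 124 and 129 CPM with shCtrl, whose ranges lay close, and at 0.26 and 0.0444 CPM in control and 0 and 0 CPM in transduced C4-2B cells.

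Androgen response genes that were called in C4-2B were mostly lower with MYCL. Of 32, 13 were lower and 1 higher in C4-2B, and 5 lower and 5 higher in NCI-H660 cells, with medians of −0.33 and −0.01. In C4-2B 40.6% were thus lower, against 6.95% of all genes. The NCI-H660 counts, 15.6% each, stood beside 5.88% lower and 6.96% higher of all genes. Without shCtrl replicate 1 both became 3, as did the lower ones without shMYCL replicate 2 and the higher ones without shMYCL replicate 1. The cold channel TRPM8 was opposite, with −1.13 and 0.85. FKBP5 was at −0.20 (not called) and −0.56, and the pioneer factor FOXA1 at −0.41 and 0.20, called in neither. In C4-2B cells KLK3, which encodes PSA, was −0.53 (adjusted p = 8.63e-04). SPDEF was −0.31 there, under the minimum.

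Of 50 axon guidance genes, 16 were higher and 1 lower in C4-2B, and 7 higher and 8 lower in NCI-H660 cells. These are 32%, 2%, 14% and 16%, against 10.6%, 6.95%, 6.96% and 5.88% of all genes, and medians were 0.12 and −0.02. Of 35 measured in both, 5 followed MYCL (background 1.83%), the ephrins EFNA1 (1.26 and 1.61), EFNA3 and EFNB1, SEMA4B and UNC5B, and as many rose in C4-2B only (background 5.42%). Another 3 were opposite (background 0.908%) and 3 fell in NCI-H660 only (background 2.36%). From log2(TPM + 1), 7 were higher in C4-2B, 3 followed and 1 rose in C4-2B only. Leaving out single libraries gave 3 followers without shCtrl replicate 2 or shMYCL replicate 1, 3 genes in C4-2B only without control or MYCL replicate 1 and 8 without shMYCL replicate 1. It gave 4 lower genes in NCI-H660 cells and 1 opposite gene without shMYCL replicate 1 or replicate 2, and 1 lower in NCI-H660 only without MYCL replicate 1 or shMYCL replicate 2. Tight junction genes CLDN3 (0.61 and 0.81) and CLDN4 (0.82 and 0.68) and the epithelial factor ELF3 (1.89 and 0.73) followed MYCL, while the 28 epithelial junction genes had medians of 0.0047 and 0.09. SPARC, a matrix glycoprotein, followed with 1.36 and 3.62. The 29 matrix and mesenchymal genes had medians of 0.73 and −0.10, with 16 higher in C4-2B against 4 in NCI-H660 cells (55.2% and 13.8%), and from log2(TPM + 1) the 16 were 8. The 24 integrin and focal adhesion genes had medians of 0.07 and −0.21, and no follower among 19 measured in both (background 1.83%). In NCI-H660 cells 6 were lower and 1 higher (25% and 4.17%, against 5.88% and 6.96% of all genes). The difference was called higher in C4-2B for 8 and lower for 1 (33.3% and 4.17%, against 9.59% and 8.33%). ITGB1, ITGAV and YAP1 were called in neither line, with averages of 0.02, −0.18 and −0.25.

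Glycolysis genes had calls in both lines. Of 19 genes, 7 were higher in C4-2B and 2 higher and 3 lower in NCI-H660 cells (36.8%, 10.5% and 15.8%, against 10.6%, 6.96% and 5.88% of all genes). The 3 lower ones became 0 without shCtrl replicate 1. HK2 was the single follower, and medians were 0.23 and 0.05. ALDOA, an aldolase, rose in C4-2B only (1.09 and 0.08), with 42.8% of its exon bases shared with another gene model, and its relative ALDOC was opposite (1.33 and −1.14). Of 25 cholesterol synthesis genes, 3 were higher and 3 lower in C4-2B (12% each, against 10.6% and 6.95% of all genes), 1 followed (TM7SF2, a sterol reductase, 0.62 and 0.50), and medians were −0.08 and −0.18. Secretory granule and synaptic genes had medians of 0.19 and −0.06 over 26 genes, and no follower among the 11 measured in both (background 1.83%). One of those, the vesicle protein RAB3A, was higher in NCI-H660 only (1.79 and 0.53).

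**Figure D5:**
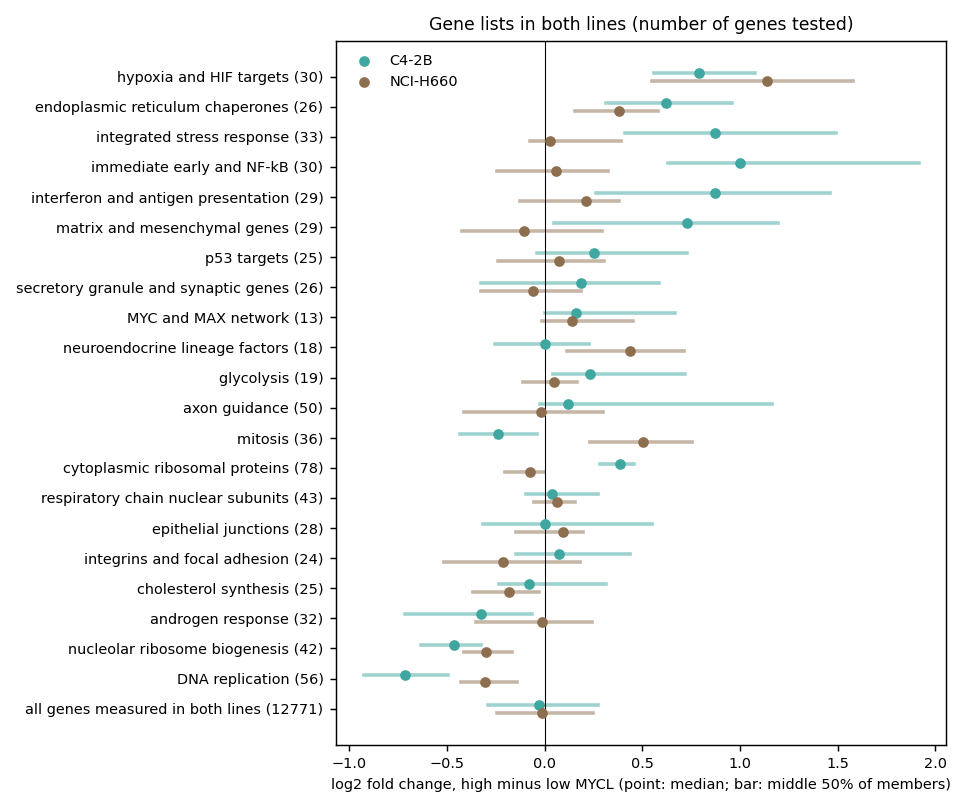
Median effect of high against low MYCL (x axis, log2 fold change) of each gene list in C4-2B (green) and NCI-H660 cells (brown), with bars from the lower to the upper quartile of members and the number tested in brackets. Hypoxia and ER chaperone genes lie right of 0 and replication and nucleolar genes left of 0 in both lines, while mitosis lies on opposite sides.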

How the data were processed

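RNA was poly(A)-selected and sequenced as paired ends. The authors deposited a table of estimated counts per gene and a table of TPM, which scales counts by transcript length and library total. Per the labels the build was hg38, and the aligner, counter and strand setting are not given in the sources used here. The TPM table held here covers fewer genes than the count table. No value column was left unmapped. Estimated counts were rounded, filtered with filterByExpr, scaled by TMM and fitted with edgeR 4.0.16 (R 4.3.3; limma 3.58.1; DESeq2 1.42.0) as 4 groups with a shared spread, and p-values were adjusted by Benjamini-Hochberg over all 19605 genes. CPM values are TMM-scaled. The fit was tested on simulated data.

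Followers and genes against MYCL were called in both lines with one sign, opposite genes in both with unlike signs and a called difference, and single-line genes in one line with a called difference. A single-line class thus refers to calls, and a smaller effect of the same sign can remain in the other line. Genes were named as the largest effects per class (mean of at least 8 CPM in each line, libraries not overlapping), the largest per list, and genes the study follows, 145 in all. A further 22 list members (ATF4, ATF6, AURKA, BIRC3, BNIP3, CDKN1A, CHAC1, EGLN3, HMMR, HSP90B1, JUN, MANF, MKI67, NFKB1, P4HA1, PCNA, PLK1, SLC2A1, SYVN1, TAP1, TRIB3 and VEGFA) were named for their role after their values were seen. Results of some named genes are not reported here. The comparison, lists and tests were chosen with earlier results of these data known. Exon overlaps use GENCODE 44 annotation of GRCh38, in which 18847 of 19605 identifiers were found. Alternatives were DESeq2, other scalings, filters and minimum folds, TPM, thinning, a replicate block and leaving out each library.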

Additional observations from a re-analysis of the deposited data

Results flagged for a closer look

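Effects that differed between the lines are given as the C4-2B effect minus the NCI-H660 effect, in log2 units, for the named genes measured in both lines whose edgeR quasi-likelihood test of that difference passed the threshold. This held for 108 of 135 such genes, and 103 are given. MYCL, the perturbed gene, differed by 5.19.

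Genes that rose with MYCL in both lines could still rise by unequal amounts. The C4-2B effect was larger for TCIM (2.95), HMOX1 (2.39), GDF15 (2.04), DNAJB9 (1.52), UNC5B (1.26), JUN (1.17), ELF3 (1.16), NDUFA4L2 (1.13), HSPA5 (1.08), VEGFA (1.07), P4HA1 (1.05), HERPUD1 (1.03), SEL1L (0.74) and BIRC3 (0.64). The NCI-H660 effect was larger for SPARC (−2.26), HK2 (−2.05), ANKRD37 (−1.90), SLC2A1 (−1.16), BHLHE40 (−0.73), MXI1 (−0.68), STC2 (−0.65) and EGLN3 (−0.57). The hypoxia genes were found on both sides, with VEGFA, P4HA1 and NDUFA4L2 among the former and SLC2A1, EGLN3 and ANKRD37 among the latter. Of the genes that fell in both lines, PCDH20 (−1.72), FAM111B (−1.07), CLSPN (−0.98) and MCM10 (−0.65) fell more in C4-2B, and FGFRL1 (0.69) fell more in NCI-H660 cells.

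Opposite effects gave SEMA6B (5.71), HEG1 (2.63), ANK1 (2.60), ALDOC (2.47), TNFRSF12A (2.38), OPLAH (2.30), MAP3K14 (2.02), CLU (1.88) and CDKN1A (1.51) for genes higher with MYCL in C4-2B. They gave DDC (−3.72), SLC4A4 (−3.22), H1-2 (−2.01), TRPM8 (−1.97), HERC3 (−1.88), FERMT1 (−1.71) and CCNB1 (−1.66) for the reverse. HERC3, a ubiquitin ligase, is uncertain, since 69.5% of its exon bases are shared with another gene model.

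Of the genes higher in C4-2B only, stress and p53 pathway members were DDIT3 (3.83), ATF3 (2.88), NIBAN1 (2.80), CHAC1 (2.79), GADD45B (2.65), GADD45A (2.18), PMAIP1 (2.16), BBC3 (1.82), TRIB3 (1.38), MANF (0.89), ATF4 (0.82) and SYVN1 (0.77). Inflammatory and antigen presentation genes were FOS (3.76), IL32 (3.68) and TAP1 (1.37), and lineage markers were L1CAM (2.25), ENO2 (2.00), PEG10 (1.98) and RET (1.60). The others were COL16A1 (2.66), RPL12 (1.14), ALDOA (1.01), ITGA3 (0.81), FDFT1 (0.69), COX6A1 (0.64) and TJP3 (0.55). TJP3 and ITGA3 also had positive effects in NCI-H660 cells (0.49 and 0.47), under the minimum. COL16A1 (−0.56) and RPL12 (−0.49) went the other way there, and neither was called. Of those called lower in C4-2B only, cell cycle and nucleolar genes were MCM5 (−1.24), POLA2 (−1.14), MKI67 (−0.73), UTP20 (−0.72), FOXM1 (−0.72), NCL (−0.69) and PCNA (−0.67). The others were TXNIP (−2.94), GRIN3A (−2.05), CDC42EP3 (−1.85), SLC45A3 (−1.77), AADAT (−1.62) and ACAT2 (−0.75). FOXM1, UTP20, ACAT2 and MCM5 also had negative effects in NCI-H660 cells (−0.39, −0.40, −0.36 and −0.35), under the minimum.

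Of the genes higher with MYCL in NCI-H660 only, those of mitosis were KIF20A (−1.54), HMMR (−1.36), PLK1 (−1.32), AURKA (−0.96) and CENPA (−0.74), and the others were CLEC7A (−2.98), AK4 (−2.07), BMPR1B (−1.74), APOLD1 (−1.72), MXD3 (−1.37), RAB3A (−1.26) and SOX4 (−0.93). MXD3 shares 19.5% of its exon bases with RAB24 on the same strand. Lower in NCI-H660 only were SLPI (2.22), LHX2 (2.21), KCNMA1 (1.62), NFKBIB (1.52) and CTNND1 (1.41). Without a call in either line, RPLP1 (0.87), ATP5MC1 (−0.62) and FOXA1 (−0.61) differed between the lines.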

How the results depend on the processing

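Counts of calls and classes stayed within 1.5 times their value under DESeq2, RLE scaling, a minimum of 10 counts per library or no filter at all, thinning, each line fitted alone and the class counts over all genes tested. Deviations of same-numbered libraries from their group means correlated at −0.018 (C4-2B) and 0.014 (NCI-H660) over 12771 genes. Same-numbered libraries thus shared no deviation across genes, which cannot show whether they were prepared together. With a replicate block within each line, 2336 averages and 3576 differences were called, and no count moved by over 1.5 times. Leaving out 1 library at a time gave between 66 and 112 opposite genes higher in C4-2B, the lone library being assumed to vary like the others, and moved no other count by over 1.5 times.

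On log2(TPM + 1) the followers were 138, the opposite genes higher in C4-2B 61, C4-2B only higher genes 309 and NCI-H660 only lower genes 198, with 48.9% of averages and 35.7% of differences higher. With 0.1 as pseudocount these were 123, 52, 380 and 141, with 47.8% and 36.7%. Without a TPM filter 1381 averages (46.3% higher) and 1898 differences (37.1% higher) were called, with 83 followers, 31 and 49 opposite genes, 203 C4-2B only higher and 210 higher and 119 lower NCI-H660 only genes. Centring each library on its median TPM, chosen after seeing the data, gave 77 and 49 opposite genes and 425 C4-2B only higher genes. With a mean of at least 5 CPM in each line, 68 genes were opposite and higher in C4-2B and 450 C4-2B only higher.

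Without a minimum fold 5360 averages (50.4% higher) were called, with 421 followers, 559 against and 247 and 235 opposite genes. At a minimum log2 fold of 1 there were 913 averages, 1666 differences (64.2% higher), 43 followers, 9 against, 22 and 10 opposite, 362 higher and 116 lower C4-2B only and 123 higher and 79 lower NCI-H660 only genes. The cause of the TPM shifts was not tested.

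Of 3295 gene values under alternatives, 8 averages and 5 differences changed sign, all in genes under 1 CPM in one line and all on TPM scales. The SOX2 average became 0.50 (0.54 centred), NTN1 −0.15 (−0.11 centred), and SEMA6D −0.025. The IGFBP5 difference became −1.64 (−0.36 with pseudocount 0.1, −1.55 centred) and the ANGPTL4 difference −1.08. Among single genes, leaving out 1 library lost the called difference of NDUFA4L2 and TJP3 in 7 of 8 cases, of SEL1L, ITGA3 and BIRC3 in 6, of UTP20 and BHLHE40 in 5 and of EGLN3 in 4. Of the genes named by class, PCDH20 kept its class under 15, HMOX1 under 16 and ANK1 under 17 of 23 alternatives. The hypoxia, ER chaperone, replication, nucleolar and mitosis medians kept their sign in both lines under each alternative that gave list medians, each line fitted alone included. With 2 libraries a group, small effects and genes near 1 CPM are the least certain.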

Other observations

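Further genes taken by the same rule of naming are given here by value. Within the gene lists, DNAJB9, a cochaperone of the ER, followed MYCL (2.12 and 0.60, C4-2B first), as did SEL1L (1.25 and 0.52). The replication initiation factor MCM10 (−1.41 and −0.76) and the nucleolar HEATR1 (−0.66 and −0.55) moved against it, HEATR1 with LGALS8 exons on the other strand over 23.1% of its exon bases. A called average without a class was found for the glucose-responsive factor MLXIPL (0.87), the lactate transporter SLC16A3 (0.50) and the ribosome assembly factor MRTO4 (−0.61). Leaving out 1 library lost the MLXIPL and SLC16A3 calls in 4 of 8 cases each.

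Several listed genes were under 1 CPM in one line, so they are given here by their levels or by the effect in 1 line. In C4-2B cells, the chemokine CXCL8 was at 0 and 0 CPM in control and 0.57 and 0.0604 CPM with MYCL, and CCL20 went from 0.13 and 0.355 CPM to 8.72 and 10.4 CPM. The immunoproteasome subunit PSMB9 was at 0.0975 and 0 CPM in control and 0.627 and 0.725 CPM with MYCL, and PSMB8 went from 0.13 and 0.178 CPM to 1.42 and 0.725 CPM. In NCI-H660 cells these 4 had effects of 0.15, 1.92, 0.33 and 0.26, with none called. IGFBP5, an insulin-like growth factor binding protein, was at 0.0325 and 0 CPM in control and 1.54 and 0.906 CPM with MYCL in C4-2B cells, and at 293 and 357 CPM with shMYCL and 1208 and 1253 CPM with shCtrl in NCI-H660 cells. TMPRSS2, an androgen-induced protease, had an effect of 0.39 (adjusted p = 0.0127) in C4-2B cells, under the minimum. Its level was near 0 CPM in NCI-H660 cells, so no effect is given there. UCHL1, a neuronal ubiquitin hydrolase, was at 0.423 and 0.311 CPM in control and 0.057 and 0 CPM with MYCL in C4-2B cells and had an effect of −0.01 (adjusted p = 0.964) in NCI-H660 cells. SYT1 was at −0.39 (adjusted p = 0.0319) in NCI-H660 cells, under the minimum, and NEUROG3 at 1.31 and 1.88 CPM with shMYCL and 6.77 and 4.03 CPM with shCtrl.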
